A study of Hermetia illucens with 24 samples.

Results

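Larvae of *Hermetia illucens*, the black soldier fly, which is farmed on organic waste, were compared after 72 h on chicken feed containing aflatoxin B1 (AFB1) and after 72 h on chicken feed without it. The comparison used 4 AFB1 libraries and 4 control libraries, 8 of the 24 libraries of the series, chosen by diet and time from the labels. All larvae were 5 days old when the diets began, and each library came from total RNA of 2 whole larvae pooled together. The other 16 libraries, from 6 h and 24 h on the same diets, entered the statistical fit and are given only where the late response is set beside the earlier ones. The dose of AFB1 is not given in the sources used here, and neither is whether the pools of a group came from separate containers. The p-values therefore measure the spread between libraries within a group, estimated over all 24 libraries of the fit.

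AFB1 is a toxin of *Aspergillus* moulds. In mammals, cytochrome P450 enzymes turn it into a reactive epoxide that binds DNA, and glutathione transfer helps to clear it. The black soldier fly is known for growing on feed that holds amounts of AFB1 harmful to livestock. The files and reference used here name most genes only by an NCBI LOC number, without a product, so genes are described by identity, level and position among their neighbours, and no function is assigned. For the same reason the whole-larva origin of the RNA could not be checked against tissue markers.

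The 8 libraries held between 8208141 and 17009072 counts. The control libraries were much closer to each other than those of any other group. Between pairs of 72 h controls, 11.3% to 28.8% of genes with at least 20 counts over the pair differed at an unadjusted p under 0.05 by an exact binomial test, against 40.2% to 78.9% between pairs within the other groups. This exceeds the counting noise of a single library sequenced again, taken as at most 5% of genes, and the controls were counted as 4 samples. Repeat libraries of the same RNA could exceed that noise too, and whether the controls are such repeats or separate pools, as labelled, was not tested. Control SDs with n = 4, and calls made with 4 controls, may therefore rest on fewer than 4 independent samples. The median range of log2 CPM (counts relative to scaled library size, with a prior count of 2) over 4 libraries was 0.35 in these controls and 1.11 in the AFB1 libraries. For this reason results are also given with the controls summed to 2 libraries (replicates 1 and 4, and 2 and 3) or to 1. These were the closest pairs of controls, with 11.3% of genes differing between replicates 1 and 4 and 18.2% between 2 and 3. In the other pairs of controls 27.2% to 28.8% differed.

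The AFB1 libraries differed far more from one another than these controls did. Their median range of 1.11 compares with 0.84 in 6 h controls, 1.43 in 24 h controls, and 1.49 and 1.56 in AFB1 libraries of 6 h and 24 h. Across the 10165 genes tested, which are not independent replicates, Pearson's r of log2 CPM was 0.961 between AFB1 replicates 1 and 4 and 0.758 between replicates 1 and 2. Replicate 3 lay between them, with r of 0.857 to replicate 1, 0.862 to replicate 2 and 0.886 to replicate 4. AFB1 replicate 2 had a higher r to a control library of 6 h, 0.880, than to any library of its own group, so counts are given with and without it.

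After 72 h on AFB1 feed more genes were lower than higher. Of 10165 genes tested, 943 (9.28%) were called at an adjusted p under 0.05 by edgeR's quasi-likelihood test with Benjamini-Hochberg adjustment. Of these, 341 (3.35%) were higher on AFB1 feed and 602 (5.92%) were lower. Without AFB1 replicate 2, 1084 genes were called, 414 higher and 670 lower. With the controls summed to 2 libraries the count was 458, of which 55 were higher and 403 lower, and with the controls summed to 1 library it was 258, all lower. With 1 control library its spread is taken to be that of the other groups. In total 257 lower genes and 0 higher genes were called with 4, with 2 and with 1 control library. At an unadjusted p under 0.05, 802 genes of either direction passed with 1 summed control. In bulk RNA of whole larvae, fewer cells of a type and less RNA per cell cannot be told apart.

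Genes were sorted by how the single AFB1 libraries lay against the controls, a description that uses the same values as the test. A gene was named consistent lower when all 4 AFB1 libraries lay at least 2-fold below the lowest control, and consistent higher when all 4 lay at least 2-fold above the highest. It was named varying when at least 1 AFB1 library lay 2-fold outside the control range and at least 1 other lay inside that range or on its opposite side. Genes with all 4 AFB1 libraries outside on the same side, but not all by 2-fold, were named intermediate. By this rule 570 genes (5.61%) were consistent lower, 110 (1.08%) consistent higher, 937 (9.22%) intermediate and 2330 (22.9%) varying, and 6218 had no AFB1 library 2-fold outside the controls. Of the 570 consistent lower genes 504 were called lower, and of the 110 consistent higher genes 89 were called higher. Among the 2330 varying genes 88 were called higher, near the share of all genes tested (3.35%), and 0 lower (5.92% of all). The fitted change follows the group mean, which 1 high library can carry. LOC119647826, for example, had a fitted log2 fold change of 1.96 but a median difference of -4.00 in log2 CPM. The 0 called lower is therefore not read as a result about these genes.

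The consistent lower genes had been a large part of the control transcriptome. They took 17.3%, 17.9%, 18.5% and 17.5% of the counts in the 4 controls, and 0.811%, 1.70%, 1.18% and 0.779% in the 4 AFB1 libraries. The mean share was 17.8% ± 0.547 (SD, n = 4) on control feed and 1.12% ± 0.429 on AFB1 feed. The consistent higher genes took 0.289% ± 0.0124 of the counts in controls and 1.66% ± 0.469 in AFB1 libraries. The groups did not overlap for either share, which the choice of the genes fixes.

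**Figure D1:**
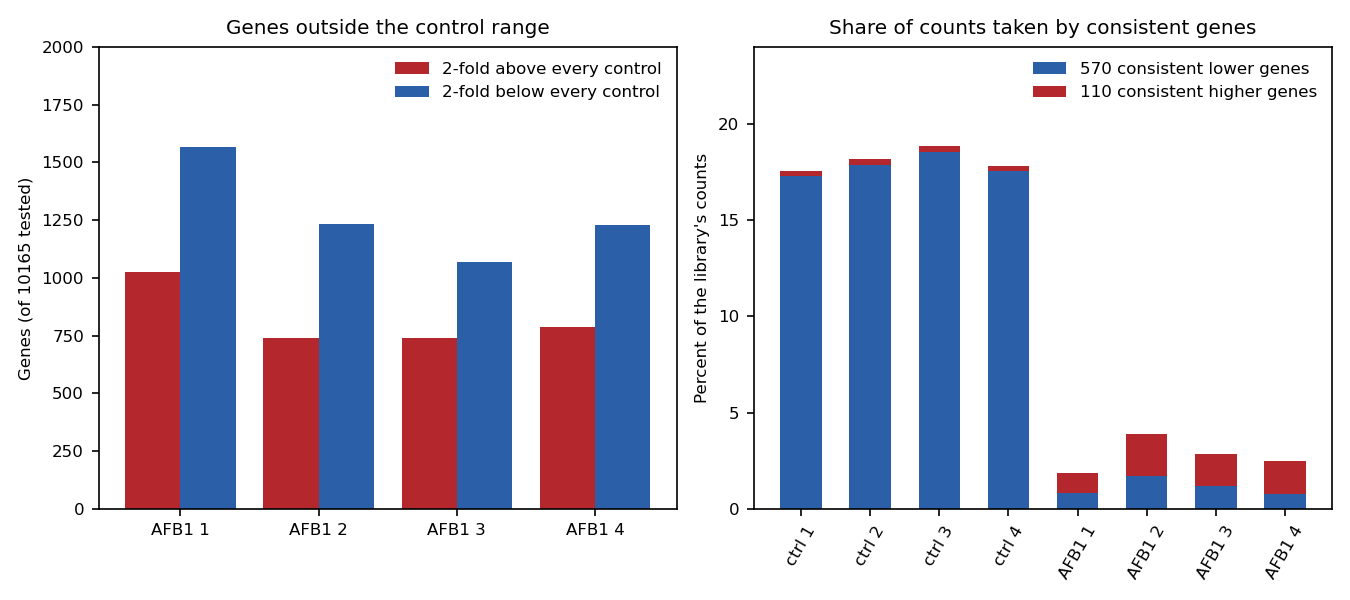
Left, the number of the 10165 tested genes at least 2-fold above the highest control (red) or below the lowest control (blue) in each AFB1 library of 72 h. Right, stacked bars of the percent of each library's counts taken by the consistent lower (blue) and consistent higher (red) genes. AFB1 replicate 1 had the most genes outside the controls, 1027 above and 1569 below, and the lower genes shrink from 17.8% of counts on average to 1.12%.

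Every AFB1 library had more genes below the controls than above. AFB1 replicate 1 had 1027 genes at least 2-fold above and 1569 at least 2-fold below all controls. The numbers above and below were 740 and 1233 in replicate 2, 740 and 1067 in replicate 3, and 788 and 1227 in replicate 4.

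**Figure D2:**
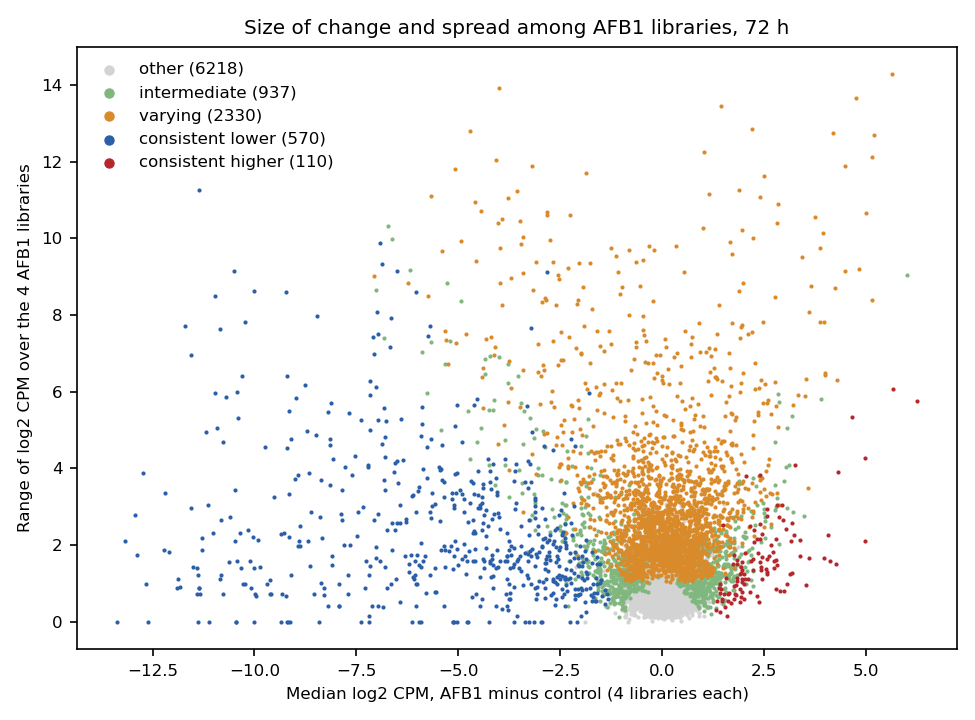
Each point is 1 tested gene, with the median log2 CPM of AFB1 minus control libraries on the horizontal axis and the range of log2 CPM over the 4 AFB1 libraries on the vertical axis, coloured by class. The consistent lower genes (blue, 570) extend beyond -12.5 at small ranges, while the varying genes (orange, 2330) reach the widest ranges, such as 14.27 for LOC119657251 at a median of 5.63 and 13.92 for LOC119647826 at a median of -4.00.

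The decreases of the consistent lower genes were deep. Of the 570, 533 were at least 4-fold lower, 334 at least 16-fold, 191 at least 64-fold and 108 at least 256-fold, where genes at 0 counts in all AFB1 libraries were set to their lower bound. The median log2 fold change, with these genes at their bound, was -4.55, against 0.06 over all genes tested. The highest of the consistent lower genes in controls was LOC119650137, with 5328, 5312, 5809 and 5304 CPM. In the AFB1 libraries it was at 0.720, 0.446, 1.08 and 0.230 CPM. The groups did not overlap, which the choice of consistent lower genes fixes. The log2 fold change was -13.08 ± 1.84 (SE; edgeR quasi-likelihood test, Benjamini-Hochberg adjusted p = 8.6e-05).

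LOC119657222 had 2725, 2789, 2736 and 2766 CPM in controls and 0, 0.803, 0.361 and 0.115 CPM on AFB1 feed. LOC119657182 had 1649, 1432, 1648 and 1602 CPM in controls and 0, 0.446, 0.0902 and 0 CPM on AFB1 feed. LOC119657298 had 1378, 1497, 1515 and 1376 CPM against 0.0800, 0.134, 0.0902 and 0 CPM. For these 3 genes the AFB1 libraries held 23, 11 and 5 counts in all, so almost no transcript was counted in any of the 4 pools. Their log2 fold changes were -12.90 ± 1.85 for LOC119657222, -13.14 ± 1.43 for LOC119657182 and -13.89 ± 1.43 for LOC119657298. Controls changed with time as well. At 24 h they averaged 4.83 ± 5.18 CPM for LOC119657182 and 4.41 ± 3.51 for LOC119657298, but 178 ± 189 for LOC119657222. LOC119657182 and LOC119657298 were at 756 ± 678 and 433 ± 404 CPM in 6 h controls. In 6 h AFB1 libraries they were already at 0.655 ± 0.239 and 0.707 ± 0.860 CPM. LOC119648918 was at 1042 ± 43.8 CPM (SD, n = 4) in controls and 0.132 ± 0.156 CPM on AFB1 feed. It too was low in 24 h controls, at 2.25 ± 2.19 CPM, and in 6 h AFB1 libraries, at 0.153 ± 0.0645 CPM. LOC119657231 had 4229, 3057, 3061 and 4269 CPM in controls and 0.560, 3.53, 0.271 and 0.115 CPM on AFB1 feed, with AFB1 replicate 2 the highest. Each of these genes kept its call and its direction in every alternative tried, including the control libraries summed to 1.

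Some genes were not seen at all on AFB1 feed. There were 34 genes with 0 counts in all 4 AFB1 libraries, of which 28 averaged at least 1 CPM in controls, 14 at least 10 CPM and 7 at least 100 CPM, and 27 of the 34 were called. LOC119657225 had 1483, 1373, 1398 and 1465 CPM in controls, 80103 counts in all, and none on AFB1 feed, where a floor of 3 counts over the 4 libraries puts it at least 25793-fold lower. LOC119658100 had 846, 878, 836 and 851 CPM in controls and was at least 15556-fold lower. In 24 h controls, however, LOC119658100 averaged only 1.21 ± 1.45 CPM, and in 6 h AFB1 libraries 0.0532 ± 0.106 CPM. LOC119649344 (347, 383, 389 and 335 CPM) was at least 6778-fold lower and LOC119652760 (297, 262, 310 and 306 CPM) at least 5325-fold lower. These bounds cover counting error only. In the opposite direction 7 genes had 0 counts in all 4 controls. Of these, 3 averaged at least 1 CPM on AFB1 feed and 1 was called.

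LOC119647977 fell to a low level that was even over the 4 AFB1 pools. It had 1584, 1327, 1445 and 1567 CPM in controls and 18.4, 16.0, 21.2 and 14.7 CPM in the AFB1 libraries. The groups did not overlap, with a log2 fold change of -6.40 ± 0.60 (edgeR quasi-likelihood test, Benjamini-Hochberg adjusted p = 4.27e-06). LOC119648359 had 2779, 2324, 2454 and 2761 CPM in controls and 1.04, 0.714, 1.62 and 1.84 CPM on AFB1 feed. Neither gene, both named in an earlier account of these data, was called after 6 h of AFB1: LOC119647977 averaged 877 ± 427 CPM in 6 h controls and 1764 ± 798 in 6 h AFB1 libraries, and LOC119648359 averaged 1564 ± 439 and 1841 ± 1030.

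**Figure D3:**
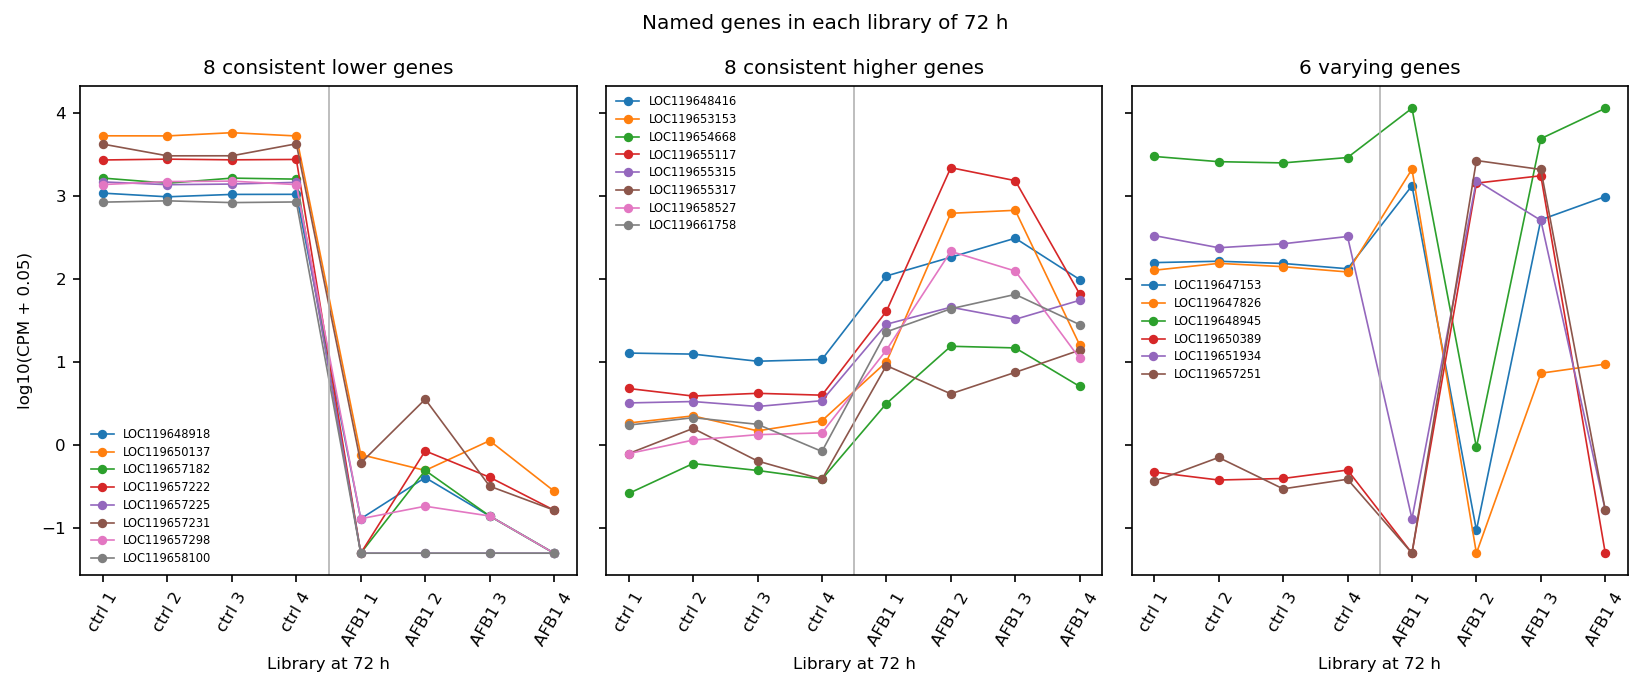
Values of log10(CPM + 0.05) in the 8 libraries of 72 h, 4 controls left of the grey line and 4 AFB1 libraries right of it, for 8 consistent lower, 8 consistent higher and 6 varying genes. The lower genes have at least 836 CPM in every control and at most 3.53 CPM in every AFB1 library. The higher genes lie above the controls in every AFB1 library. Each varying gene is far above the controls in some AFB1 libraries and below them in others. For LOC119657251 and LOC119650389 the controls themselves are near 0.

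Many consistent lower genes lay next to each other. In the gene order of the RefSeq annotation, 277 of the 570 (48.6%) had a consistent lower gene as an adjacent tested gene, against 7.44% of the other placed genes. Runs of 3 or more numbered 32 and held 181 of the genes, and the longest held 18. The runs were picked out after the values had been seen, and are described without a test. Their genes are consistent lower by choice, and 504 of the 570 were called lower at 72 h, against 5.92% of all genes tested. Counts of calls at 72 h within runs largely follow from that choice. Neighbours may be copies of one another, and how reads of near-identical genes were counted is not known.

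A run of abundant genes, from LOC119658072 to LOC119657252, held 6 of the genes named above (LOC119657231, LOC119657222, LOC119657298, LOC119658100, LOC119657182 and LOC119657225). Its 18 genes summed to 27040, 25705, 26301 and 27059 CPM in the controls and to 7.92, 13.5, 11.4 and 9.19 CPM in the AFB1 libraries. The mean level of single genes in controls ran from 141 to 3654 CPM, and none exceeded 2.60 CPM on average on AFB1 feed. All 18 were called lower, also with the controls summed to 2 and to 1. At earlier times the same run summed to 9477 ± 6278 CPM (SD, n = 4) in 6 h controls and 2768 ± 2042 in 6 h AFB1 libraries, and to 9116 ± 3387 and 987 ± 1094 at 24 h. Of its genes, 14 were called lower at 6 h (7.74% of all genes tested were) and 12 at 24 h (19.1% were).

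A second run of 18 genes, from LOC119648868 to LOC119648321 and including LOC119649344, summed to 5616, 4997, 5132 and 5409 CPM in the controls and to 2.72, 17.1, 6.05 and 2.18 CPM on AFB1 feed. All 18 were called lower at 72 h, and 17 and 16 with the controls summed to 2 and to 1. At 24 h all 18 were called lower as well (19.1% of all genes tested were), and at 6 h 2 were, near the share of all genes (7.74%). A run of 15 genes, from LOC119651582 to LOC119652756, held LOC119652760 and summed to between 5027 and 5291 CPM in controls and 1.12, 21.3, 18.4 and 5.63 CPM on AFB1 feed. Its genes overlap at 10 places in the annotation, so reads may be shared between them, and 15, 12 and 9 were called with 4, 2 and 1 control libraries.

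In a run of 17 genes of low level the AFB1 effect differed between 72 h and 6 h. From LOC119648054 to LOC119657041 these genes summed to 136, 97.3, 90.7 and 126 CPM in the 72 h controls and to 0.720, 1.52, 1.26 and 2.64 CPM on AFB1 feed. In 6 h libraries the sum was 191 ± 208 CPM on control feed and 727 ± 607 on AFB1 feed, and none of the genes was called there in either direction (7.74% of all genes tested were called lower at 6 h and 6.52% higher). In 24 h libraries the sum was 693 ± 322 CPM on control feed and 316 ± 419 on AFB1 feed, with 1 gene called lower. At 72 h 13 of the 17 were called lower, but 7 with the controls summed to 2 and 3 with 1, and the lowest number when 1 library was left out was 7. The difference between the 72 h and 6 h effects was called for 14 of the 17 (2.98% of all genes tested), and that between 72 h and 24 h for 0 by edgeR (2.36%), 7 by DESeq2 and 0 by limma voom. At an unadjusted p under 0.05 the difference from 24 h passed for 11 of the 17 in edgeR. With the controls summed to 2, the difference from 6 h was called for 27 of all genes tested in place of 303. How many of the 17 were among these 27 is not given here.

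**Figure D4:**
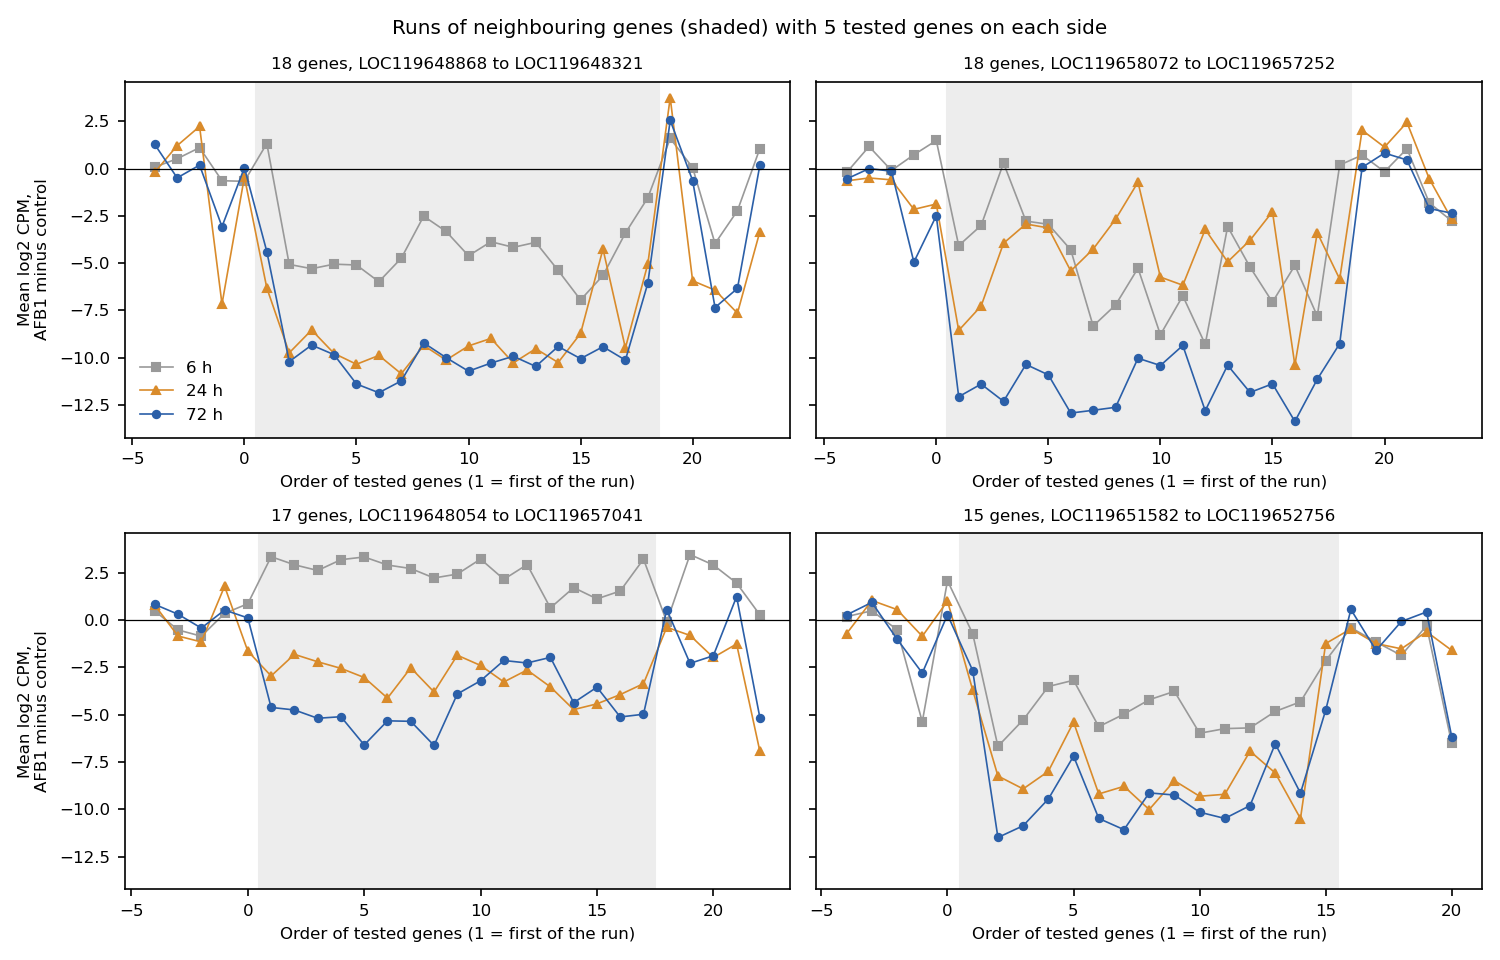
Mean log2 CPM (prior count 2) of AFB1 minus control libraries at 6 h (grey), 24 h (orange) and 72 h (blue) along 4 runs of neighbouring consistent lower genes, shaded, with 5 tested genes on each side, in order of position. Within the 2 runs of 18 genes the 72 h differences lie near -10 or below for most genes and below those of the flanking genes, and in the run of 17 genes the 6 h values are above 0.

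The consistent higher genes were fewer, less abundant and changed less. Of the 110, 81 were at least 4-fold higher, 15 at least 16-fold and 5 at least 64-fold, and none reached 256-fold. Their median log2 fold change was 2.66. The largest was in LOC119655117, with 4.77, 3.86, 4.16 and 3.95 CPM in controls and 40.9, 2201, 1535 and 66.3 CPM in the AFB1 libraries. All 4 AFB1 libraries were above the controls, but replicates 2 and 3 stood far above replicates 1 and 4. Its log2 fold change was 7.84 ± 1.32 (edgeR quasi-likelihood test, Benjamini-Hochberg adjusted p = 0.000468).

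LOC119653153 showed the same division, with 1.80, 2.20, 1.44 and 1.92 CPM in controls and 10.0, 621, 675 and 16.1 CPM on AFB1 feed. LOC119658527 did so too, with 0.742, 1.10, 1.29 and 1.35 CPM in controls and 13.9, 216, 125 and 11.0 CPM on AFB1 feed. Leaving out AFB1 replicates 2 and 3, an alternative added after the data were seen, moved the log2 fold change from 7.84 to 3.65 for LOC119655117, from 7.48 to 2.80 for LOC119653153 and from 6.33 to 3.44 for LOC119658527. The last 2 were then no longer called (edgeR quasi-likelihood test, Benjamini-Hochberg adjusted p = 0.311 and 0.122). With the controls summed to 1 library, where the adjusted p was highest, LOC119658527 reached 0.706 and LOC119655117 reached 0.248 by the same test.

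Among called consistent higher genes changed at least 4-fold, LOC119651873 and LOC119646960 had the narrowest ranges over the AFB1 libraries. LOC119651873 had 195, 201, 191 and 189 CPM in controls and 1078, 793, 937 and 1128 CPM on AFB1 feed. It was higher on AFB1 feed by 2.34 ± 0.54 on the log2 scale, at 984 ± 151 CPM against 194 ± 5.17 in controls. At 6 h and 24 h it averaged 1190 ± 896 and 1069 ± 655 CPM in controls, and 1600 ± 822 and 1074 ± 472 CPM in AFB1 libraries. Its mean AFB1 level at 72 h was thus not above the earlier ones, while its 72 h controls were below the earlier controls. LOC119646960 had 4.15 ± 0.436 CPM in controls and 22.5 ± 4.83 CPM on AFB1 feed (SD, n = 4). Other genes spread more. LOC119648416 had 11.6 ± 1.28 CPM in controls and 176 ± 97.8 CPM on AFB1 feed, and LOC119661758 had 1.58 ± 0.555 and 40.2 ± 19.0 CPM. LOC119654668 had 0.387 ± 0.145 CPM in controls and 3.12, 15.5, 14.8 and 5.05 CPM on AFB1 feed, again with replicates 2 and 3 above the others. Its log2 fold change moved from 4.55 to 3.29 without these 2 libraries. With the controls summed to 2 libraries only LOC119655117 and LOC119654668 of the 10 consistent higher genes named here remained called, and with 1 none did.

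The neighbours LOC119655315, LOC119655316 and LOC119655317 were all consistent higher and all called with 4 controls, and none with the controls summed to 2. LOC119655315 had 3.18, 3.31, 2.87 and 3.39 CPM in controls and 28.6, 45.9, 32.8 and 55.6 CPM on AFB1 feed. LOC119655317 had 0.742, 1.54, 0.595 and 0.339 CPM in controls and 9.04, 4.11, 7.49 and 13.9 CPM on AFB1 feed. Their AFB1 effect at 6 h lay in the other direction, with the 3 genes summing to 50.5 ± 54.8 CPM in 6 h controls and 1.95 ± 1.63 CPM in 6 h AFB1 libraries. The difference between the effects at 72 h and 6 h was called for all 3 (2.98% of all genes tested). In total 14 of the 110 consistent higher genes (12.7%) had an adjacent gene of the same class, against 2.00% of other placed genes.

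The varying genes outnumbered the consistent ones at 72 h, as they did at the earlier times, with 3361 varying genes at 6 h (33.1%) and 3340 at 24 h (32.9%). For 1347 of the 2330, 1 AFB1 library alone lay 2-fold outside the controls: replicate 1 for 584 genes, replicate 2 for 422, replicate 3 for 202 and replicate 4 for 139. In 434 genes AFB1 libraries lay outside on both sides, in 964 only above and in 932 only below. Without AFB1 replicate 2 the number of varying genes was 1145, and without another AFB1 library 1596 to 2089. Consistent higher genes numbered 253 without replicate 2 and 133 to 140 without another AFB1 library.

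The widest range over AFB1 libraries was that of LOC119657251, which had 0.318, 0.661, 0.248 and 0.339 CPM in controls and 0, 2685, 2094 and 0.115 CPM on AFB1 feed. LOC119650389 had between 0.331 and 0.452 CPM in controls and 0, 1434, 1759 and 0 CPM on AFB1 feed. In both genes AFB1 replicates 2 and 3 were far above the controls. Replicates 1 and 4 were below them, but the controls held only 23 and 21 counts in all, so these low values are near the limit of counting. LOC119651934 had 335, 239, 267 and 326 CPM in controls and 0.0800, 1540, 511 and 0.115 CPM on AFB1 feed, so that the AFB1 libraries lay on both sides. Other genes were divided otherwise. LOC119648945 had between 2513 and 3005 CPM in controls and 11442, 0.893, 4921 and 11429 CPM on AFB1 feed, with replicate 2 alone near 0. LOC119647153 had 158, 164, 154 and 133 CPM in controls and 1334, 0.0446, 519 and 987 CPM on AFB1 feed. LOC119647826 was high only in replicate 1, at 2106 CPM, and at 0, 7.31 and 9.42 CPM in replicates 2, 3 and 4, against 122 to 155 CPM in controls. Of these 6 genes LOC119657251 and LOC119650389 were called higher, and both calls were lost with the controls summed to 2 (edgeR quasi-likelihood test, Benjamini-Hochberg adjusted p = 0.173 and 0.229). LOC119650202, named in an earlier account, had 1.27, 0.826, 1.54 and 0.565 CPM in controls and 1.44, 514, 532 and 3.22 CPM on AFB1 feed, and was called higher although replicate 1 lay within the control range. Its call was lost with limma voom, with the controls summed to 2 or to 1 and without both AFB1 replicates 2 and 3, where the log2 fold change was 1.08 in place of 7.94.

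Sets of genes were collected that differed at least 16-fold between AFB1 replicate 2 and both replicates 1 and 4, and since they were chosen on these values they are only described. There were 108 genes high in replicates 1 and 4 and 248 high in replicate 2. In the first set the median CPM was 19.3 to 23.1 in controls, 57.1 and 56.6 in AFB1 replicates 1 and 4, 0.580 in replicate 2 and 20.8 in replicate 3. In the second it was 20.6 to 22.6 in controls, 0.160 and 0.230 in AFB1 replicates 1 and 4, 42.5 in replicate 2 and 9.93 in replicate 3. Replicate 3 played no part in the choice. It lay between the lowest and the highest of replicates 1, 2 and 4 in 103 of the 108 genes and in 191 of the 248. The choice makes that span at least 16-fold wide, so these counts are no separate check of an order among the replicates. Of the 248 genes, 204 were 2-fold below every control in replicate 1 and 200 in replicate 4, and 127 were 2-fold above every control in replicate 2.

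**Figure D5:**
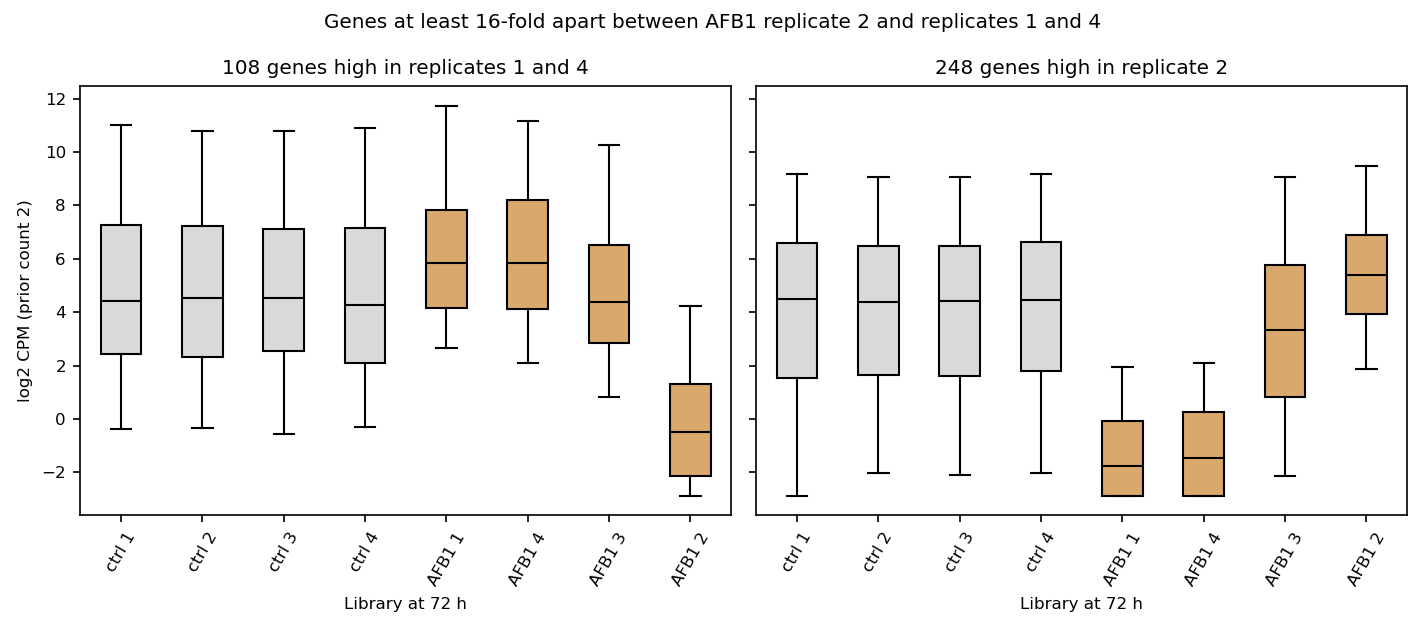
Boxes of log2 CPM (prior count 2; line at the median, box from the lower to the upper quartile, whiskers from the 5th to the 95th percentile) in the 8 libraries of 72 h for the 108 genes high in AFB1 replicates 1 and 4 (left) and the 248 genes high in replicate 2 (right). Grey boxes are controls, and AFB1 replicate 3 lies between replicate 2 and replicates 1 and 4 in both panels.

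Varying genes also ran together along the annotation. Of those placed, 50.9% had an adjacent varying gene, against 35.0% of other genes. In a run of 19, from LOC119652126 to LOC119652131, the summed level was 4881 to 5256 CPM in controls and 13193, 3117, 5538 and 14246 CPM in the AFB1 libraries, with replicates 1 and 4 the highest. In a run of 9, from LOC119657516 to LOC119658012 and holding LOC119657251, it was 15.9 to 20.7 CPM in controls and 33.0, 5198, 4477 and 24.8 CPM on AFB1 feed. In a run of 11, from LOC119657773 to LOC119657782, it was 93.2 to 110 CPM in controls and 23.4, 62.7, 1685 and 42.6 CPM on AFB1 feed. Replicate 3 alone was high in that run, and LOC119656617 in it had 480 CPM there and at most 0.919 CPM in the other AFB1 libraries, against 6.21 to 8.70 CPM in controls.

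The lower genes of 72 h were in part lower already at the earlier times. Of the 570 consistent lower genes, 158 were also consistent lower at 6 h, which is 27.7% of the 72 h genes and 47.6% of the 332 at 6 h (3.27% of genes tested). At 24 h 179 were, 31.4% of the 72 h genes and 74.0% of the 242 at 24 h (2.38%), and 41 were consistent lower at all 3 times. The consistent higher genes shared 4 with the 17 at 6 h (0.167%) and 1 with the 14 at 24 h (0.138%), and 0 were in the class at all 3 times. The controls of 6 h and 24 h had median ranges of 0.84 and 1.43 on the log2 scale against 0.35 at 72 h, so that the same 2-fold rule is harder to meet there. Over the 570 genes the median level was 40.3 CPM in 6 h controls, 4.44 in 6 h AFB1 libraries, 26.1 and 0.971 at 24 h, and 62.3 and 1.44 at 72 h. Over the 110 consistent higher genes it was 12.2 CPM in 6 h controls and 22.9 in 6 h AFB1 libraries. At 24 h it was 14.4 and 20.7 CPM, and at 72 h 5.26 and 34.6 CPM. The gap of these genes at 72 h thus went with controls below those of the earlier times as well as with higher AFB1 levels.

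The effect itself differed between 72 h and 6 h for 303 genes (2.98%) and between 72 h and 24 h for 240 genes (2.36%), by the interaction contrast of the same fit. Of the 570 consistent lower genes 95 differed from 6 h and 55 from 24 h, and of the 110 consistent higher genes 24 and 24. These counts depended on the controls: with the controls summed to 2 they were 27 and 5, and leaving out 1 control gave 205 to 218 for the difference from 6 h and 26 to 33 for that from 24 h. Leaving out AFB1 replicate 3 gave 58 for the difference from 24 h, and leaving out AFB1 replicate 4 gave 105. Among the named genes the lowest p for the difference from 6 h was that of LOC119647977 and LOC119648359, whose differences were -7.40 and -11.20 on the log2 scale (edgeR quasi-likelihood test, Benjamini-Hochberg adjusted p = 1.6e-05 and 8.91e-05).

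Most genes tested were protein coding. Of 9997 protein-coding genes tested, 562 were consistent lower, 109 consistent higher and 2278 (22.8%) varying. Of 159 long non-coding RNAs, 8 were consistent lower, 1 consistent higher and 49 (30.8%) varying. The 12 mitochondrial protein genes took between 4.21% and 5.48% of the counts in the 8 libraries and none was called, and AFB1 replicate 1 was the highest AFB1 library for 11 of the 12. The most abundant gene, LOC119646963, took 15.3%, 12.9%, 11.4% and 15.3% of the counts in controls and 27.7%, 8.94%, 9.94% and 12.9% in AFB1 libraries. Replicate 1 was above all controls and replicates 2 and 3 below them. When this gene was left out of the fit, 942 genes were called, 340 higher and 602 lower.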

How the data were processed

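Values in the deposited table were raw counts of reads for each gene, with a column for every library, per the file headers. The submitters' processing notes name STAR. Its version, the counting tool, strand setting and genome build were not given in the sources used here. Per the labels' protocols, RNA of 2 pooled larvae was sequenced as 150 bp read pairs. The protocols describe 5 pools per group, and 4 libraries of each were analysed here. The 9 lines naming no gene (0.0206% to 0.0431% of counts) and 1 stray line were left out. Of 15187 named genes, 13511 had a count.

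From the counts, edgeR 4.0.16 in R 4.3.3 kept 10165 genes by filterByExpr, scaled libraries by TMM and fitted 1 coefficient per group over all 24 libraries, with a common biological coefficient of variation of 0.513 and 18 residual degrees of freedom. The robust quasi-likelihood test was two-sided, with Benjamini-Hochberg adjustment over all genes tested. The spread is shared by the 6 groups and includes the near-identical controls. CPM used the scaled library sizes, and an SE is the log2 fold change divided by the square root of F. DESeq2 1.42.0 and limma 3.58.1 (voom) were alternatives. The scripts were tested on simulated counts.

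The genes described, and the lists, were chosen with earlier results of these data known. Named genes had a mean log2 CPM of at least 1 over the 8 libraries. They were the 8 called consistent lower and 8 called consistent higher genes of largest median difference, the 2 called genes per direction of narrowest AFB1 range among those changed at least 4-fold (ties by lowest p), and the 6 varying genes of widest range. To these were added 6 genes of an earlier account and the most abundant gene. Lists by product, protein patterns, paralogs by sequence and promoter motifs were planned. They could not be formed, because the reference table used (RefSeq gene names and order, all 10165 tested genes matched) gives no products or sequences. Genes named only within runs of neighbours were chosen after their values were seen. Same-numbered libraries of the 2 diets at 72 h did not deviate together (correlations between -0.0442 and -0.00412), so replicate numbers were not treated as pairs.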

Additional observations from a re-analysis of the deposited data

Results flagged for a closer look

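In total 70 groups of 4 libraries were examined for a single outlying library, of which 4 had no range. They covered the named genes, the share of counts of LOC119646963 and the summed levels of 4 runs of consistent lower genes. Chance flags about 1 group in 20, so the 3 groups flagged are about as many as chance gives. LOC119647826 stood out at 2106 CPM in AFB1 replicate 1 of 72 h, where the other AFB1 libraries had at most 9.42 CPM. LOC119650137 stood out at 5809 CPM in control replicate 3, with the other controls between 5304 and 5328 CPM. LOC119657231 stood out at 3.53 CPM in AFB1 replicate 2, with the others at most 0.560 CPM.

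For 19 of the 30 named genes the AFB1 effect at 72 h differed from that at an earlier time by the interaction contrast. Of all genes tested, 2.98% differed from 6 h and 2.36% from 24 h. Most named genes were chosen on values at 72 h that enter this contrast, so the count of 19 partly follows from that choice. With the controls summed to 2 libraries, only 27 genes of all tested differed from 6 h and 5 from 24 h. The test was edgeR's quasi-likelihood test with Benjamini-Hochberg adjustment, and the values are differences of log2 fold changes. Below 0 from 6 h were LOC119647977 at -7.40, LOC119648359 at -11.20, LOC119650137 at -11.48, LOC119657222 at -8.49 and LOC119657231 at -11.78. So were LOC119649344 at -12.83, LOC119652760 at -10.24 and LOC119657225 at -12.99, whose AFB1 libraries of 72 h hold 0 counts, so that their fitted values depend on the prior count. Below 0 from 24 h were LOC119647977 at -5.51, LOC119648359 at -8.93, LOC119648918 at -9.36, LOC119657222 at -8.61, LOC119657231 at -9.07 and LOC119657298 at -9.03. For LOC119648918 and LOC119657298 the AFB1 means were near 0 at 24 h (0.155 and 0.0913 CPM) and at 72 h (0.132 and 0.0760 CPM). Their controls averaged 2.25 and 4.41 CPM at 24 h and 1042 and 1442 CPM at 72 h. The differences of LOC119648918 and LOC119657298 thus went with the controls, not with a further fall on AFB1 feed.

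Above 0 from 6 h were LOC119654668 at 6.29, LOC119655117 at 6.96, LOC119655315 at 5.39 and LOC119661758 at 5.45, and LOC119655317 at 10.68, which had 0 counts in the AFB1 libraries of 6 h. LOC119650202 at 10.72, LOC119650389 at 21.19, LOC119651934 at 12.57 and LOC119657251 at 16.02 were also above 0 from 6 h, and these 4 genes varied widely among the AFB1 libraries of 72 h. LOC119650389 had 54.2 ± 106 CPM (SD, n = 4) in 6 h controls and 0.0256 ± 0.0322 CPM in 6 h AFB1 libraries. Its difference thus also rests on widely spread 6 h controls and on values near 0.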

How the results depend on the processing

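Other scaling, filtering or tools moved the count of called genes little (RLE scaling 939, no filter 895 of 13511, DESeq2 1230, limma voom 950, or 947 with robust moderation), but DESeq2 called 526 genes higher, limma voom 244 and a fit to the 8 libraries alone 582. Summing the controls to 2 or to 1 gave 458 and 258 calls, with 55 and 0 higher, and 258 lower with 1. Leaving out 1 library gave 712 to 1084 calls, of which 201 to 414 were higher and 488 to 670 lower. Without both AFB1 replicates 1 and 4 there were 597 calls, 345 of them lower, and without both 2 and 3 there were 1134. Both of these fits were added after the data were seen. The difference from 6 h was called for 674 genes by DESeq2, 86 by limma voom, 27 and 9 with the controls summed to 2 and 1, and 73 without both AFB1 replicates 2 and 3, and for 205 to 357 when 1 library was left out. That from 24 h was called for 1117 genes by DESeq2, 5 and 2 with summed controls, and 26 to 340 when 1 library was left out. With 4-fold in place of 2-fold, 17 genes were consistent higher and 776 varying. Leaving out 1 library gave 115 to 253 consistent higher and 1145 to 2406 varying genes. The cause of these shifts was not tested. No scaling moved the median of all genes by over 0.1 (log2).

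Of the 30 named genes, 12 kept call and direction in every alternative, all consistent lower. Directions that reversed were all of varying genes or the most abundant gene. LOC119646963 was at -0.079 with limma voom, -0.49 (without AFB1 replicate 1) to 0.50 when 1 library was left out, and -0.91 without both 1 and 4. LOC119647153 was at -0.64 with limma voom. LOC119647826 was at -4.48 with limma voom, -1.97 with the replicate block, -4.63 (without AFB1 replicate 1) to 2.37 when 1 library was left out, and -5.26 without both 1 and 4. LOC119648945 was at -1.51 with limma voom and -0.17 without both 1 and 4. Without both 2 and 3, LOC119650389 was at -5.48, LOC119651934 at -11.47 and LOC119657251 at -2.86, and LOC119651934 was at -4.45 with limma voom and at -0.80 (without AFB1 replicate 2) to 1.23 when 1 library was left out.

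The replicate numbers did not pair the libraries compared: at 72 h the deviations of same-numbered libraries correlated between -0.0442 and -0.00412, and 0 of 4 AFB1 libraries correlated best with their own number. Over all groups the correlations of the 60 same-numbered pairs ran from -0.557 to 0.444, on both sides of 0. Of these pairs 13 had a correlation over 0.1, among them all 4 between AFB1 libraries of 6 h and 24 h (0.104 to 0.444). With the replicate block 877 genes were called, 273 higher and 604 lower, and the difference from 24 h was called for 106. Genes near 0 counts are limited by depth.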
